A study of Caenorhabditis elegans with 2 samples.

Results

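Of the 2177 PHA-4 peaks in C. elegans embryos that passed the authors' irreproducible discovery rate threshold, 483 (22.2%) lay in distal intergenic sequence. These are described here. A peak was counted as distal when its summit lay outside every protein-coding gene span and outside the promoter windows, which reach 1000 bp upstream and 200 bp downstream of each 5' end of a protein-coding transcript, in the Ensembl release 115 annotation of the WBcel235 (ce11) assembly. The rule used position only. A further 1363 peaks had their summit in a promoter window and 331 within a gene. The study mapped the tagged factor by chromatin immunoprecipitation and sequencing (ChIP-seq) in mixed-stage embryos of strain OP37, whose genotype is unc-119(ed3) III; wgIs37. All material carried both the unc-119 mutation and the wgIs37 transgene, which expresses eGFP-pha-4, and came from whole animals of pooled sexes. There were 2 biological replicates from separate biosamples and 1 group, with no treatment. The cells and promoter that drive the transgene are not given in the labels used here, and a whole-embryo sample does not show in which cells a site was occupied. The array adds copies of pha-4, and reads from the array and from the gene itself were not separated, so values around pha-4 carry that limit. The antibody label reads pha-4 while the description names the tagged protein. Read depth is unknown.

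PHA-4 is the C. elegans FoxA factor, a forkhead protein that specifies the pharynx, the feeding organ, and acts in the foregut and intestine of the embryo. FoxA proteins bind DNA through a winged-helix domain and are known in mammals for opening compact chromatin at enhancers as well as promoters. Most worm genes are controlled from sequence close to their start, and transfer RNA (tRNA), small nucleolar RNA (snoRNA) and microRNA (miRNA) genes also stand in the sequence between protein-coding genes.

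The windows below cover 101 bp centred on a summit, read from the RefSeq WBcel235 genome on the plus strand, and show what a strong distal site looks like. Capitals mark every motif match on either strand. The motifs marked are the PHA-4 consensus TRTTKRY, the GA repeat GAGAGA, the word ACGCAGA and a 10-letter word shared by X-linked sites. Both GAGAGA and ACGCAGA were known from earlier results to be frequent at these summits. The first is the strongest distal peak (V:20749181-20749281), upstream of pha-4. The next come from rps-28 (IV:1657195-1657295), which holds a stringent FoxA site and a GA repeat running into ACGCAGA, and from T19C3.4 (III:623925-624025), with GAGAGA and ACGCAGA overlapping likewise.
pha-4: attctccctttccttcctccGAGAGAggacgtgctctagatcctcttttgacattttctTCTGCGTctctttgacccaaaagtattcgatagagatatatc
rps-28: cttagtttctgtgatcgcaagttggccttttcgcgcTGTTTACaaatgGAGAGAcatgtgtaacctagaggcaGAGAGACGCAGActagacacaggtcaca
T19C3.4: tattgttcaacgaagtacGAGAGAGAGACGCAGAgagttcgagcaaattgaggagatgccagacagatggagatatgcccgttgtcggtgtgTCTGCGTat
The X-linked windows below belong to peaks nearest to F22H10.2 (X:16682047-16682147), gtr-1 (X:806629-806729), F20B6.9 (X:4209230-4209330) and xol-1 (X:8036369-8036469), and share the 10-letter word ATCGCGCAGG on one strand or the other.
F22H10.2: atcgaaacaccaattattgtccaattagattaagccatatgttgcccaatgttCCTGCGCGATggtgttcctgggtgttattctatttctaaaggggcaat
gtr-1: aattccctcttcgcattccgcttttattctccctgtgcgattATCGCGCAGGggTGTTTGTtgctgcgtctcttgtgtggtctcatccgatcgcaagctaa
F20B6.9: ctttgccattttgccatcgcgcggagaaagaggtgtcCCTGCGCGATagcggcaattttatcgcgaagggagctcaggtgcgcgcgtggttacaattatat
xol-1: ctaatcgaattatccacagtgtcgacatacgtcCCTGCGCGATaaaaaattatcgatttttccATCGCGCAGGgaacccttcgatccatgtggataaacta
The xol-1 window holds the word once in each orientation.

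The strongest distal site lay between dnj-25 and pha-4, the gene of the factor itself. Peak signal is the value the authors' peak caller gave, not scaled between lists. Distal pooled signals ran from 35.9 to 234 with a median of 53.4 and quartiles of 42.4 and 72.2. Only 2 of the 25 strongest thresholded peaks were distal, and 14 of the strongest 100. The leading site (V:20749101-20749386) had a pooled signal of 234, with 107 in replicate 1 and 138 in replicate 2, and its summit lay at -3821 bp from the start of pha-4, where negative distances are upstream. A second site in the same divergent interval (V:20745332-20745595) lay at -1118 bp from dnj-25, which encodes a DnaJ-domain protein, with signals of 157, 77.5 and 63.3 in the same order. Another site in that interval (V:20746876-20747139), at -2662 bp from dnj-25, had 88.2, 13.9 and 74.1. The first pair were high in both replicates, and the last one was far lower in replicate 1 than in replicate 2, within the limit from the array.

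Among the 20 strongest distal peaks 7 were on the X chromosome, which held 29.4% of all distal peaks. They included 6 of the leading 8, a cut made with the ranks known. The K02D3.1 site (X:13700776-13700954, -6028 bp) had a pooled signal of 190.5, with 76.7 in replicate 1 and 121 in replicate 2. The F22H10.2 site (X:16682029-16682165) lay 2557 bp downstream of its nearest start, beyond the 3' end, with 179 pooled, 83.3 in replicate 1 and 93.6 in replicate 2. The W02H3.3 site (X:11094072-11094301) had 176, 107 and 74.99. These peaks were high in both replicates, with the order of the replicates differing between sites. The C30E1.4, gtr-1, F52G3.1 and F20B6.9 sites, also on X, had pooled signals of 173, 154, 151 and 137.

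On the autosomes, the rps-28 site (IV:1657204-1657326, -2446 bp), near a gene for a small-subunit ribosomal protein, had 137 pooled, 36.8 in replicate 1 and 97.6 in replicate 2. The eps-8 site (IV:14874988-14875251, -4364 bp), near a gene for an actin-regulating protein, had 124, 68.0 and 60.7. The egl-9 site (V:10466717-10466830, -1734 bp), near the gene for the prolyl hydroxylase that controls the hypoxia factor HIF-1, had 115, 77.9 and 37.5. The rps-28 site was thus higher in replicate 2 and the egl-9 site in replicate 1. Of the 20, 19 were among the strongest 2177 entries of both replicates. The exception was a peak at -1020 bp from rol-6, a cuticle collagen gene, with 128 pooled, 127 in replicate 1 and no entry in replicate 2.

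**Figure D1:**
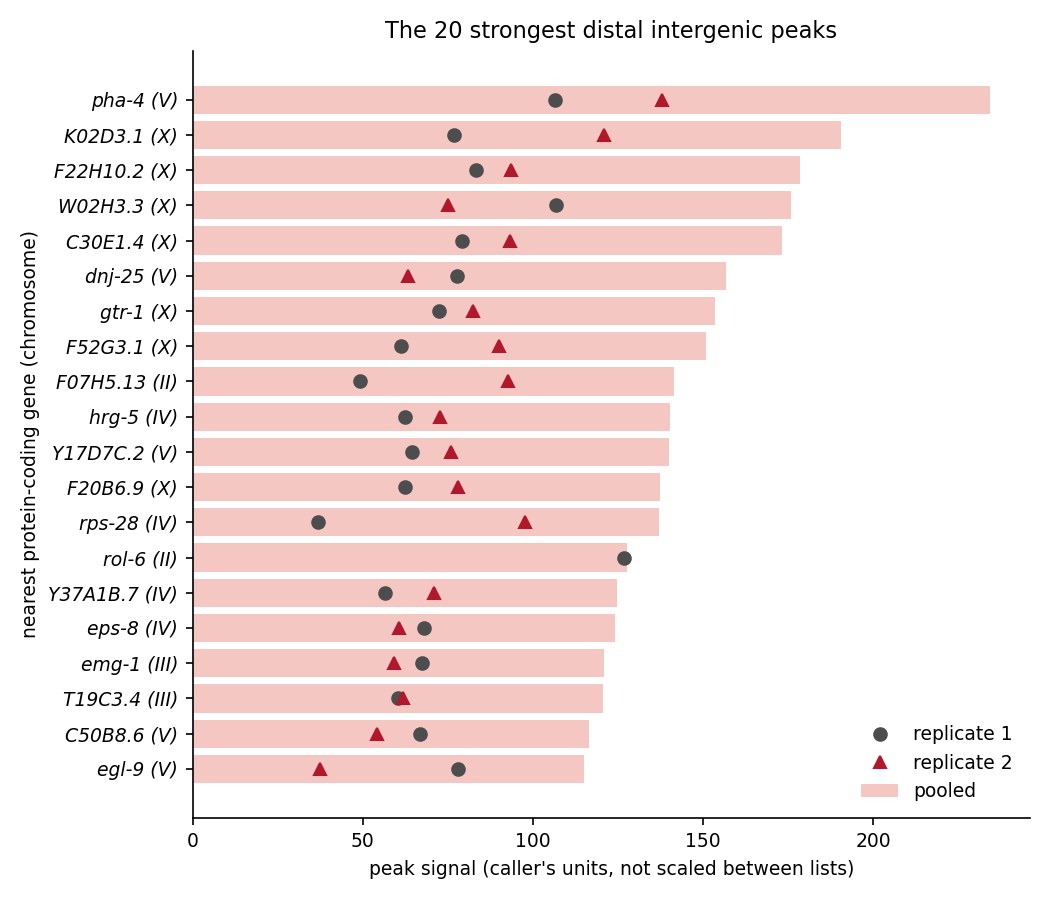
Pooled signal (bars) and replicate signals (circles, replicate 1; triangles, replicate 2) of the 20 strongest distal intergenic peaks, named by nearest protein-coding gene with its chromosome; the horizontal axis is peak signal in the caller's units. The peak near pha-4 is highest at 234, and the peak near rol-6 has no replicate 2 entry.

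Several distal peaks gathered around a few genes. The 483 peaks had 431 different nearest genes, of which 389 had 1 distal peak and 42 had 2 or more. The genes rol-6, F57G12.1 and egl-27 had 4 each. The 4 at egl-27, which encodes a homologue of the MTA chromatin proteins, had pooled signals of 58.0, 45.2, 39.3 and 36.5. The 4 at F57G12.1 had 74.7, 60.9, 49.3 and 42.5, and all were strong in both replicates. The 4 at rol-6 had no entry in replicate 2 and rested on 2 entries of replicate 1, with signals of 127 and 84.4. The genes hrg-5, Y37A1B.7, F54F12.1 and apl-1, which encodes the worm amyloid-precursor-like protein, had 3 each.

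Distal and promoter peaks differed in how each replicate ranked them. A distal peak overlapped an entry of replicate 1 in 481 cases and of replicate 2 in 477. Its median signal was 22.0 in replicate 1 (quartiles 16.4 and 32.3) against 26.8 at promoter peaks, and 32.7 in replicate 2 (25.3 and 43.5) against 31.3. Among the strongest 2177 entries of replicate 1 were 360 distal peaks (74.5%) against 85.4% of promoter peaks, an odds ratio of 0.5004 (adjusted p = 6.39e-07, two-sided Fisher's exact test, adjusted over 16 tests). In replicate 2 it was 412 (85.3%) against 80.5%, an odds ratio of 1.41 (adjusted p = 0.0394, Fisher's exact test). These tests take peaks as units and describe these 2 libraries, not the spread between embryo collections.

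The lean towards replicate 2 held on the autosomes and on X. A peak leaned to replicate 2 when its ratio of replicate 2 to replicate 1 signal exceeded the median ratio of all thresholded peaks. That held for 294 of 475 distal peaks with both entries (61.9%, 95% Clopper-Pearson interval 57.4 to 66.3) and 581 of 1352 promoter peaks (42.97%), an odds ratio of 2.16 (adjusted p = 2.28e-11, Fisher's exact test). The odds ratio was 2.20 on the autosomes (adjusted p = 3.94e-09) and 1.92 on X (adjusted p = 0.00769, exact tests), and 2.07 in a logistic model with GC content (p = 6.16e-11). The median log2 ratio of replicate 2 to replicate 1 was 0.58 (SD 0.80 over peaks) at distal and 0.19 at promoter peaks. Peaks within genes resembled distal ones in this share, with 201 of 326 (61.7%), and none of the 7 distal against within-gene tests passed (adjusted p of 0.112 or above, exact tests).

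Strength in both replicates was a less settled comparison. It held for 295 distal peaks (61.1%, interval 56.6 to 65.4), 67.1% of promoter peaks and 55.9% of peaks within genes, with an odds ratio against promoters of 0.768 (adjusted p = 0.0381, Fisher's exact test). With the list built from replicate 1 alone the odds ratio was 1.02, and from replicate 2 alone 0.488. Distal peaks exceeded the median signal of all thresholded peaks in 48.0% of cases against 52.8% of promoter peaks, which did not pass (odds ratio 0.828, adjusted p = 0.117, Fisher's exact test), although it did with the list of replicate 1 alone (odds ratio 0.661). Across the 475 distal peaks the replicate signals had a Spearman rho of 0.346, given as a description since all points share the libraries.

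**Figure D2:**
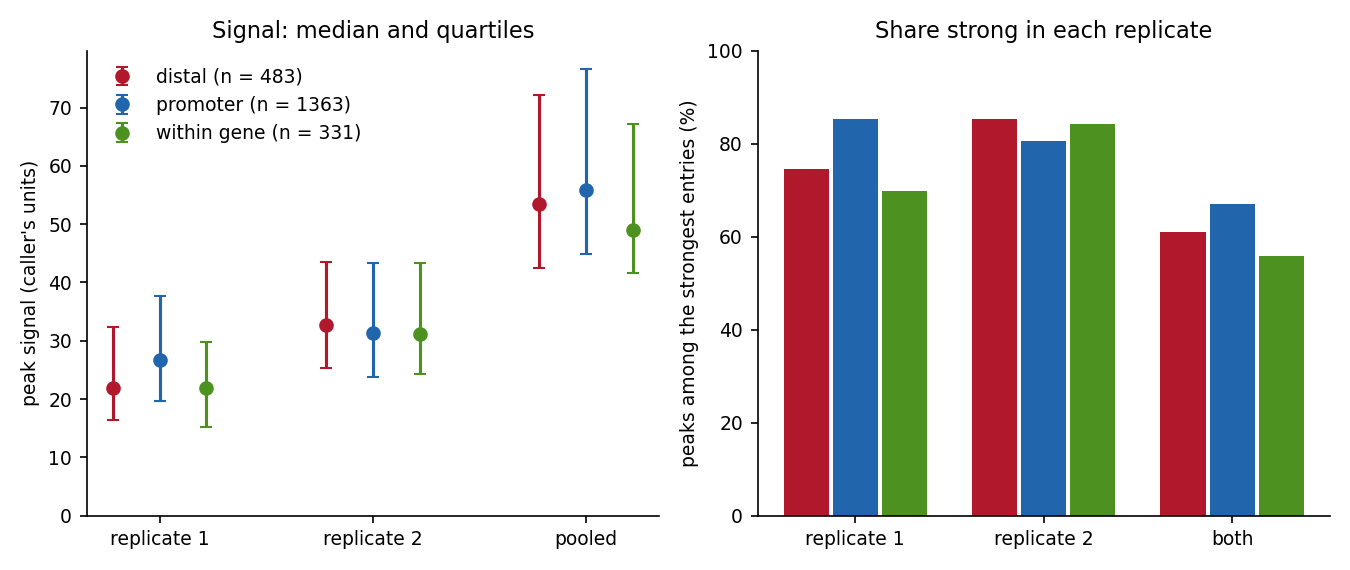
Left, median peak signal with quartiles (vertical axis, caller's units) in replicate 1, replicate 2 and the pooled list for distal, promoter and within-gene peaks. Right, the percentage of each class among the strongest 2177 entries of each replicate and of both; distal peaks are lower than promoter peaks in replicate 1 (74.5% against 85.4%) and higher in replicate 2.

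The distal peaks whose rank differed most between the replicates went both ways. Towards replicate 1 stood the 4 rol-6 peaks and a Y37A1B.7 peak near mir-52, with 40.2 in replicate 1 and no entry in replicate 2. Towards replicate 2 stood a T19E7.6 peak, with 32.8 in replicate 2 and no entry in replicate 1, and a sup-26 peak with 48.3 and none. The sup-26 peak shared its replicate 2 entry with a neighbouring distal peak that had 67.4 in replicate 1, so the region itself was not higher in replicate 2. The nep-21 site had 3.93 in replicate 1 and 36.4 in replicate 2, and the site of dcp-66, a subunit of the NuRD chromatin complex, had 4.18 and 37.1. At the threshold on signal, the weakest distal members were near hsf-1 (35.98) and Y37A1B.7 (35.93), and the strongest distal entry outside was near jmjd-3.1 (35.90). At the edge of the promoter window, pxf-1 at -1005 bp (signal 39.7) and ppm-2 at -1007 bp (109) lay just outside and were kept, while otub-2 at -1000 bp (122) and pqn-87 at -995 bp (48.9) lay inside.

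The X chromosome held more of the distal peaks than of the promoter peaks. It carried 142 (29.4%, interval 25.4 to 33.7) of the distal peaks, against 17.5% of promoter peaks, an odds ratio of 1.97 (adjusted p = 3.32e-07, Fisher's exact test). It also held 22.8% of the sequence in which a distal summit could lie, and 27.9% of the weaker entries, which are the 4587 distal pooled entries below the threshold. Against those entries the odds ratio was 1.08 (adjusted p = 0.949, Fisher's exact test), so the excess over promoters was not shown to be particular to the thresholded sites. Chromosome V went the other way, with 46 distal peaks (9.52%) on 20.6% of the territory, an odds ratio of 0.585 against promoter peaks (adjusted p = 0.00471) and of 0.595 against the weaker entries (adjusted p = 0.00505, exact tests). Per Mb of that territory there were 27.9 distal peaks on chromosome III, 24.8 on X and 8.88 on V.

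**Figure D3:**
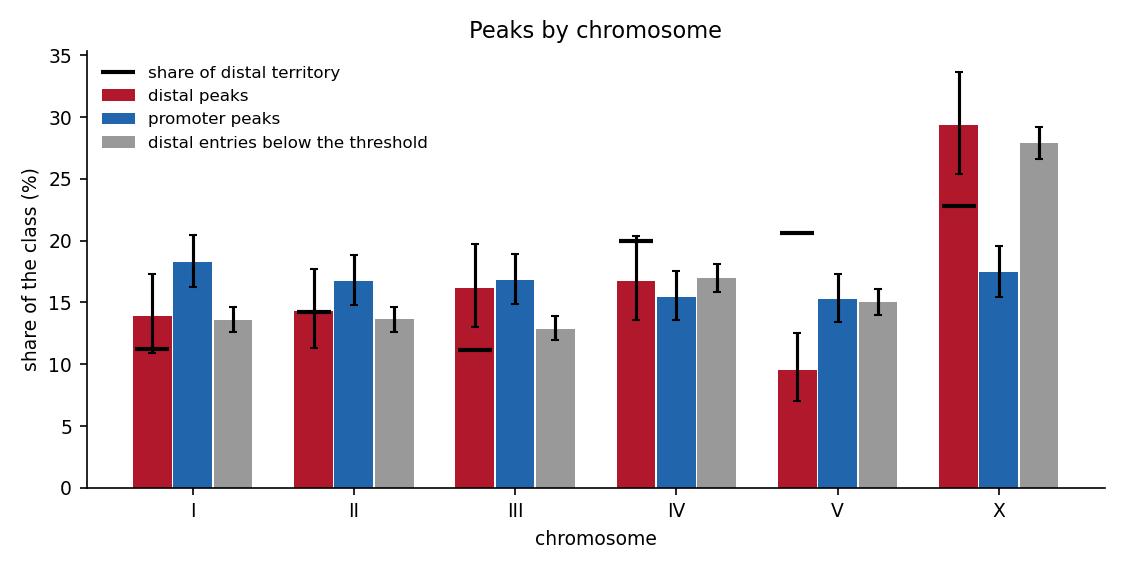
Share of distal peaks, promoter peaks and distal entries below the threshold on each chromosome (vertical axis, percent of the class; bars with 95% Clopper-Pearson intervals), with black dashes for the chromosome's share of the sequence in which a distal summit could lie. X holds 29.4% of distal and 17.5% of promoter peaks, and V holds 9.52% of distal peaks on 20.6% of the territory.

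The 10-letter word of the X-linked windows shown above was found in the 20 strongest distal windows after their sequences had been seen, as were its length and letters, so it is given as counts without a test. It stood in 4 of those 20 windows and in 5 distal peaks in all, nearest to F22H10.2, W02H3.3, gtr-1, F20B6.9 and xol-1, every one on X. No autosomal distal peak of 341 held it. It stood at 1 promoter peak and 2 within-gene peaks, all on X, and at 1 of the 4587 weaker entries. In same-length tiles of the genome it stood in 0.0182% on X and 0.00341% on the autosomes. The letters match the core of the MEX motif, known from sites on X where the dosage compensation complex of hermaphrodites is recruited, and xol-1 is the switch gene of sex determination and dosage compensation. The xol-1 site had 81.8 pooled, 62.1 in replicate 1 and 24.8 in replicate 2. Whether that complex bears on these peaks was not tested.

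A second 10-letter word, AGAGACGCAG, shares letters with the GA repeat and with ACGCAGA without holding either in full, and was chosen in the same way. It stood in 8 of the strongest 20 and in 77 of all distal peaks (15.9%), of which 15 were among the 142 on X and 62 among the 341 on autosomes. It stood in 10.9% of promoter peaks, 2.77% of the weaker distal entries, and 0.212% of tiles on X and 0.557% on autosomes.

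The distal sites lay mostly upstream of the nearest start of a protein-coding gene, a few kilobases away. A total of 359 (74.3%) were upstream of the nearest 5' end and 124 (25.7%) beyond the 3' end of that gene. Of the weaker entries 29.1% lay beyond the 3' end, so a mostly upstream position was not particular to distal peaks. The median distance to the nearest 5' end was 2382 bp (quartiles 1436 and 3879) and the farthest was 16235 bp, with 69 (14.3%) over 5000 bp. The nearest protein-coding gene on either side was often another one, at a median of 1757 bp. The weaker entries had a median of 2548 bp to the nearest 5' end, and no range of distances passed against them (adjusted p of 0.0898 or above, Fisher's exact tests). Among the farthest upstream were a dmd-6 site at -11303 bp (73.3 pooled, 35.2 and 39.98 in the replicates), an nhr-41 site at -10737 bp (54.8 pooled) and an F57G12.1 site at -10133 bp (74.7). By the directions of the flanking protein-coding genes, 269 peaks (55.7%) lay between tandem genes, 167 (34.6%) between divergent and 47 (9.73%) between convergent ones. The weaker entries split at 55.4%, 33.4% and 11.2% (adjusted p of 0.918 or above, Fisher's exact tests). Of the sequence in which a distal summit could lie, the shares were 53.5%, 29.9% and 16.5%. Convergent intervals thus held less of the distal peaks (interval 7.24 to 12.7) and of the weaker entries than of that territory, which was not tested.

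Convergent intervals have no start of a flanking protein-coding gene at either edge. Non-coding gene starts can lie within them, as at the mir-53, mir-51 and C30E1.9 peaks. Peaks in convergent intervals had a median pooled signal of 70.6, against 51.5 in tandem and 53.9 in divergent intervals. Of the 47, 28 (59.6%) exceeded the distal median against 213 of 436 others (48.9%), which did not pass (odds ratio 1.54, p = 0.171, Fisher's exact test). Few distal peaks had a close neighbour: 13 had another thresholded summit within 500 bp, and the median distance to the next was 9392 bp.

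Distal summits held more FoxA-type sites and far more GA repeats than their own flanks. Motifs were searched on both strands in 201 bp windows centred on the summit and on a point 500 bp to the lower coordinate. The consensus TRTTKRY stood in 314 distal windows (65.0%, interval 60.6 to 69.3) against 45.3% of flanks (adjusted p = 3.29e-09, exact McNemar test) and 45.1% of genome tiles. The stringent form TGTTTRC, every match of which is also a TRTTKRY match, stood in 101 (20.9%, 17.4 to 24.8) against 5.18% of flanks (adjusted p = 1.94e-12, exact McNemar test) and 5.54% of tiles. The repeat GAGAGA, whose fly counterpart is bound by GAGA factor, stood in 300 (62.1%, 57.6 to 66.5) against 12.2% of flanks (adjusted p = 3.64e-50, exact McNemar test) and 9.99% of tiles. ACGCAGA, which can share its leading A with a GA repeat, stood in 112 (23.2%) against 2.69% of flanks and 1.82% of tiles. Since GAGAGA and ACGCAGA were known beforehand to be frequent at these summits, their excess over flanks and tiles is a description, not independent support. The median match lay 31 bp from the summit for TRTTKRY, 32 for TGTTTRC, 31 for GAGAGA and 25 for ACGCAGA. The mean GC content was 46.6% (SD 5.73 over peaks) at distal summits and 33.7% in their flanks.

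Against promoter summits, GAGAGA was more frequent in the main test and under every alternative run for it. Promoters held it in 41.2% of windows, an odds ratio of 2.34 for distal peaks (adjusted p = 2.28e-14, Fisher's exact test) and 1.93 with GC content in a logistic model (adjusted p = 5.27e-08). TRTTKRY stood at 58.4% of promoter summits, an odds ratio of 1.32 (adjusted p = 0.0442, Fisher's exact test), which lost its call with promoter windows of 500 bp (1.18) or 2000 bp (1.33), with summits within 500 bp counted once (1.31), with motif windows of 50 bp (1.30) and with the list of replicate 2 alone (1.29). With GC content in a binomial logistic model it was 1.56 (adjusted p = 0.000407). TGTTTRC stood at 20.7% of promoter summits, with an odds ratio of 1.01 (adjusted p = 0.948, Fisher's exact test). ACGCAGA stood at 19.1%, with an odds ratio of 1.27 (adjusted p = 0.173, Fisher's exact test). None of the 8 motifs passed against within-gene peaks, of which 53.5% held GAGAGA (adjusted p = 0.134, Fisher's exact test).

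Against the weaker distal entries, which share the territory but not the strength, all 4 were more frequent. For GAGAGA and ACGCAGA, known beforehand to be frequent at thresholded summits, this contrast too is a description. The odds ratio was 1.57 for TRTTKRY (54.2% of weaker entries, adjusted p = 9.26e-06), 2.16 for TGTTTRC (10.9%, adjusted p = 4.00e-09, Fisher's exact test), 5.56 for GAGAGA (22.8%, adjusted p = 8.25e-67) and 4.90 for ACGCAGA (5.80%, adjusted p = 9.31e-31, exact tests). GC content averaged 38.2% at the weaker entries, and with it in a logistic model the odds ratios were 2.14, 2.07, 2.96 and 2.59. The GATA-type site TGATAA, bound by factors of the intestine and epidermis, was less frequent at distal summits, in 34 windows (7.04%) against 18.2% of flanks and 17.5% of weaker entries, with an odds ratio of 0.356 against the latter (adjusted p = 4.75e-10, Fisher's exact test). With GC content in a binomial logistic model its odds ratio against the weaker entries was 0.588 (adjusted p = 0.00799). The contrast with flanks had no such model. Promoter summits held TGATAA in 7.34% of windows, an odds ratio of 0.956 for distal peaks (adjusted p = 0.948, Fisher's exact test). Within-gene peaks held it in 4.83%, so a low share was not particular to distal peaks. The T-box site TCACAC (15.3% against 10.6% of weaker entries, adjusted p = 0.00295, Fisher's exact test) did not pass with GC content (adjusted p = 0.766). CAAGTG, the NK-2 site, stood in 12.8% against 10.7% (adjusted p = 0.191), and CANNTG, the E-box of which it is a form, in 57.6% against 56.4% (adjusted p = 0.630); neither passed Fisher's exact test.

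**Figure D4:**
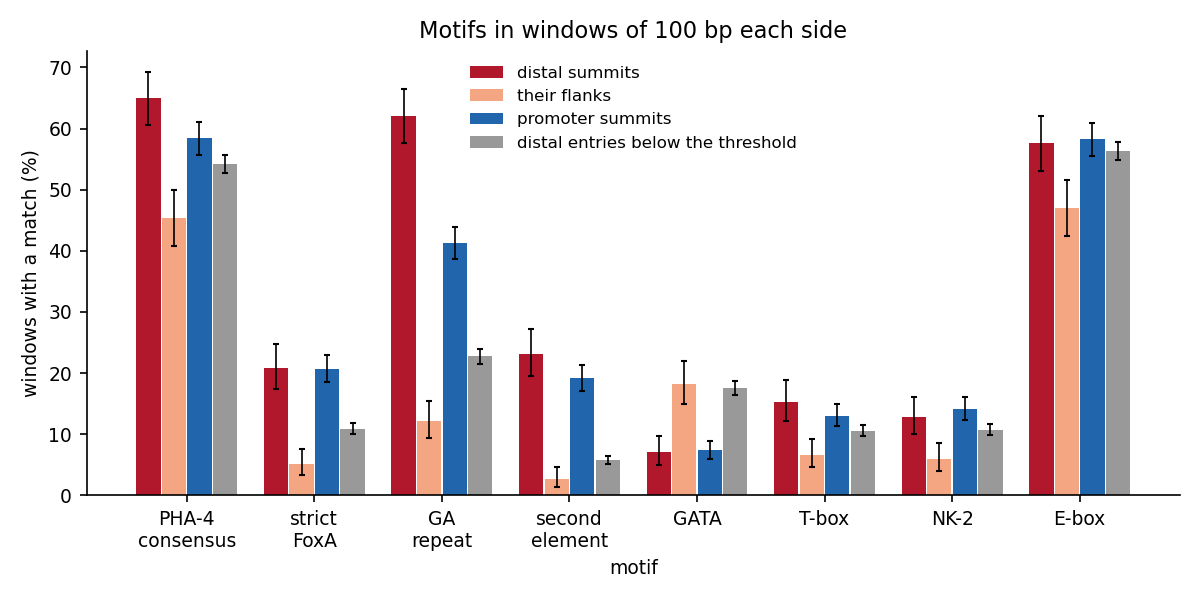
Percentage of 201 bp windows with a match (vertical axis) for 8 motifs at distal summits, their flanks, promoter summits and distal entries below the threshold, with 95% Clopper-Pearson intervals; the element after the GA repeat is the word ACGCAGA. The GA repeat stands in 62.1% of distal and 41.2% of promoter summits, the GATA site in fewer distal summits (7.04%) than flanks (18.2%).

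The motifs overlapped in part. TRTTKRY and GAGAGA stood together in 180 distal peaks (37.3%), the largest group. TRTTKRY without GAGAGA stood in 134 (27.7%) and GAGAGA without TRTTKRY in 120 (24.8%). GAGAGA stood in 57.3% of distal peaks with TRTTKRY and 71.0% without it (odds ratio 0.549, adjusted p = 0.00534, Fisher's exact test). ACGCAGA stood in 17.5% with and 33.7% without TRTTKRY (odds ratio 0.417, adjusted p = 0.000268), but in 90 of 300 with and 22 of 183 without GAGAGA (odds ratio 3.14, adjusted p = 2.09e-05, Fisher's exact tests). All but 39 distal peaks (8.07%) held at least 1 of TRTTKRY, GAGAGA and ACGCAGA. The first of these motifs alone stood in 45.1% of genome tiles and in 54.2% of weaker distal entries. The share with at least 1 of them was not compared with tiles, promoter peaks or weaker entries. It is therefore not shown to be particular to distal peaks. On X, GAGAGA stood in 46.5% of distal peaks against 68.6% on autosomes (odds ratio 0.397, adjusted p = 6.65e-05), and ACGCAGA in 11.3% against 28.2% (odds ratio 0.324, adjusted p = 0.000192, Fisher's exact tests). TRTTKRY stood in 66.2% on X and 64.5% on autosomes. Promoter peaks, weaker entries and tiles were not split this way for these motifs. The overlapping word AGAGACGCAG stood in 21 of 238 promoter peaks on X against 128 of 1125 on autosomes. Among weaker entries it stood in 6 of 1279 against 121 of 3308. The lower shares on X are therefore not shown to be particular to distal peaks.

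Of all 8192 words of 7 letters, 1.57% were more frequent at distal than at promoter summits at an adjusted p under 0.05, and 232 (2.83%) less frequent, by Fisher's exact test with Benjamini-Hochberg adjustment over all words. The leading words were GA and CA repeats: AGAGAGA in 39.1% against 16.9% (adjusted p = 7.56e-18), CTCTCTC in 36.02% against 20.03%, and ACACACA in 21.9% against 12.5% (exact tests). AGACGTA stood in 5.18% against 1.10%. The less frequent words were A-rich: AAAATAA in 6.21% against 22.4% (adjusted p = 5.47e-14, exact test) and TTAAAAA in 3.11% against 16.3%. GC content moved with these lists, averaging 47.7% over the former words and 33.4% over the latter, and 46.6% over distal against 43.9% over promoter summits; its part in the counts was not tested.

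Distal peaks often stood at the start of a non-coding gene. A 5' end of one lay within 500 bp of 196 distal summits (40.6%, interval 36.2 to 45.1), against 27.99% of weaker distal entries (odds ratio 1.76, p = 2.06e-08) and 21.0% of promoter peaks (odds ratio 2.57, p = 3.16e-16, Fisher's exact tests). Distal territory made up 25.1% of the genome but held 12893 of 26917 non-coding genes. How far the location rule alone sets this and the later contrasts with promoter peaks was not tested. The weaker entries share that territory. Unclassified ncRNA genes accounted for 154 peaks (31.9%), against 17.5% of weaker entries (odds ratio 2.21, adjusted p = 4.41e-12, Fisher's exact test over 10 gene classes). Among them were C30E1.9 on X (summit at -117 bp, 173 pooled), Y37A1B.332 (-22 bp, 125) and T19C3.11 (-60 bp, 121). piRNA genes were near 18 peaks, which did not pass against weaker entries (adjusted p = 0.0829), and pseudogenes near 6 (odds ratio 0.375, adjusted p = 0.0234, Fisher's exact tests).

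Transfer RNA genes, transcribed by RNA polymerase III, were near 31 distal peaks (6.42%, interval 4.40 to 8.99), against 2.14% of weaker entries (odds ratio 3.14, adjusted p = 2.55e-06) and 1.61% of promoter peaks (odds ratio 4.18, adjusted p = 2.65e-06, Fisher's exact tests). The median summit lay at -23 bp from the gene start, and 23 of the 31 lay within 60 bp upstream. Of the 31, 25 were on X. Among tRNA genes in distal territory, 31 of 145 on X (21.4%) and 6 of 85 on autosomes (7.06%) had a distal peak near them (odds ratio 3.58, adjusted p = 0.0144, Fisher's exact test). That test takes genes as units, although neighbouring genes can share a peak. The 31 genes on X lay near 25 peaks, and the p-value does not allow for this. Without the tRNA-near peaks X still held 117 of 452 distal peaks (25.9%, odds ratio 1.72 against promoters, p = 4.22e-05, Fisher's exact test). The genes covered many amino acids, with 6 for proline and 4 each for arginine and alanine.

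The windows below were picked among summits at a tRNA or snoRNA gene start or within 60 bp upstream of it. Their closeness to the gene thus follows from that choice. Each is drawn in the gene's direction with the bases of the RNA gene in capitals. The genes are a valine tRNA (R04D3.t2, X:13306964-13307064, plus strand), a lysine tRNA (C33G3.t2, X:14064000-14064100, minus strand), and the snoRNA genes F30H5.4 (III:502728-502828, plus strand) and C46C2.8 (IV:9191321-9191421, minus strand).
R04D3.t2: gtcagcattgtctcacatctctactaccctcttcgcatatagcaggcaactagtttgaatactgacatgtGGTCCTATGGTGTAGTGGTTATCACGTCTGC
C33G3.t2: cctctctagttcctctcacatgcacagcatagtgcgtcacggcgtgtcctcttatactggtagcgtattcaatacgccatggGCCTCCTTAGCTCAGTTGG
F30H5.4: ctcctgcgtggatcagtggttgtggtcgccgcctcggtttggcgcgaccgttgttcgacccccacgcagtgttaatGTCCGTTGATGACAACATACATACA
C46C2.8: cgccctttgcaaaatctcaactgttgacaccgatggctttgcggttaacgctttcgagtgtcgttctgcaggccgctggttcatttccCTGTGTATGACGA
The R04D3.t2 peak had 97.0 pooled, 24.1 in replicate 1 and 72.1 in replicate 2, with its summit at -20 bp. The C33G3.t2 peak had 92.0, 37.5 and 59.3 at -32 bp. Both were higher in replicate 2, as was the median of all distal peaks.

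Genes for snoRNAs, which guide modification of ribosomal RNA, were near 19 distal peaks (3.93%) against 0.654% of weaker entries (odds ratio 6.22, adjusted p = 1.76e-07, Fisher's exact test). Promoter peaks were near one in 3.01%, and the difference from these did not pass (adjusted p = 0.616, Fisher's exact test). The median summit lay at -49 bp, 17 of the 19 were upstream, and 15 were strong in both replicates. The strongest was ZK20.9 with 108 pooled, 43.7 in replicate 1 and 65.4 in replicate 2, at +3 bp. F30H5.4 had 94.2, 33.7 and 72.0 at -26 bp, and C46C2.8 had 93.2, 24.7 and 63.1 at -38 bp. All of these were higher in replicate 2 than in replicate 1, as was the median of all distal peaks. GAGAGA stood in 36.8% of snoRNA-near peaks and in 63.8% of the 287 distal peaks with no non-coding gene start nearby, which did not pass (adjusted p = 0.160, Fisher's exact test).

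**Figure D5:**
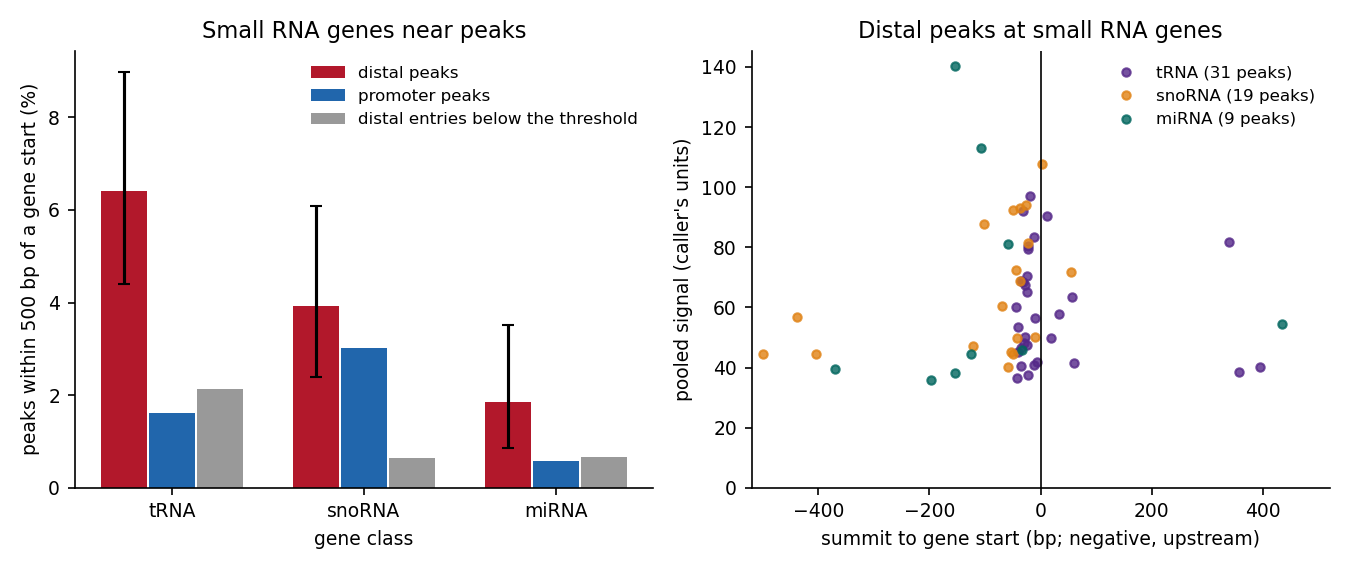
Left, percentage of distal peaks (with 95% Clopper-Pearson intervals), promoter peaks and distal entries below the threshold within 500 bp of a tRNA, snoRNA or miRNA gene start. Right, pooled signal (vertical axis, caller's units) of the distal peaks near such genes against the distance from gene start to summit (bp, negative upstream); tRNA summits cluster just upstream of the start, with a median of -23 bp.

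MicroRNA genes were near 9 distal peaks (1.86%) against 0.676% of weaker entries (odds ratio 2.79, adjusted p = 0.0234, Fisher's exact test). The call was lost among the stronger thresholded peaks (odds ratio 2.58) and with the list of replicate 2 alone (odds ratio 1.80). The genes included members of 2 seed families, and their mature sequences in the RefSeq annotation are shown with the seed, bases 2 to 8, in capitals. The mir-51, mir-52 and mir-53 arms share the seed ACCCGUA, of the miRNA family linked in embryos to attachment of the pharynx.
mir-51: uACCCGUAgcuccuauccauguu
mir-52: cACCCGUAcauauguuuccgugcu
mir-53: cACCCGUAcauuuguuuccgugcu
The mir-72, mir-73 and mir-74 arms share the seed GGCAAGA.
mir-72: aGGCAAGAuguuggcauagcuga
mir-73: uGGCAAGAuguaggcaguucagu
mir-74: uGGCAAGAaauggcagucuaca
The mir-53 window of 101 bp (IV:11027795-11027895, plus strand) has its motif matches in capitals, marked as for the leading windows.
mir-53 window: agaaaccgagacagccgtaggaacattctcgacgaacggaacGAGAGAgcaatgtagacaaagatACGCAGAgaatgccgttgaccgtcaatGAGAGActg

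The mir-53 peak had 140 pooled, 62.5 in replicate 1 and 72.8 in replicate 2, at -154 bp from the hairpin start. The mir-51 peak, in the same region near hrg-5, had 113, 40.2 and 75.5 at -108 bp. One peak on X stood at -58 bp from mir-73 and -336 bp from mir-74, with 81.1, 15.2 and 74.6. The mir-53 peak differed least between the replicates, and all 3 were higher in replicate 2. Distal peaks in general had a median log2 ratio of replicate 2 to replicate 1 of 0.58. The mir-53 peak was below that, at 0.22. A pair of peaks flanked mir-52, at +435 bp with 54.6 pooled and at -198 bp with 35.9. The remaining miRNA sites were weaker: mir-236 at 45.9, mir-72 at 44.4, mir-1, the muscle miRNA, at 39.4 and mir-80 at 38.3.

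Genes were set beside distal peaks by the nearest start. Of all 19973 protein-coding genes, 431 (2.16%) had a distal peak nearest to their start, and the gene lists are read against that share. Of 23 pharynx regulators 1, pha-4 itself, was nearest to a distal peak, as were 0 of 22 pharyngeal muscle and gland genes. The same count was 0 of 11 endoderm and intestine regulators, 0 of 16 epidermis regulators, 0 of 11 muscle regulators and 0 of 28 neuronal identity regulators. It was 0 of 63 ceh homeobox genes and 0 of 25 bHLH genes.

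Other lists had a few members. Of 16 heterochronic genes, which time development, 3 were nearest to a distal peak: din-1, a corepressor of the DAF-12 receptor, with peaks of 108 and 45.9, alg-1, an Argonaute of the miRNA pathway, with 72.4 and 61.4, and hbl-1, a zinc-finger regulator, with 59.2. Of 12 genes listed under the NuRD and MEC chromatin complexes 4 were, egl-27, spr-3 (39.9), lin-40 (36.6) and dcp-66 (35.99). Being on that list does not show that a gene encodes a subunit, and for spr-3 this was not checked. Of 22 TGF-beta and FGF genes 2 were, the receptor gene daf-4 (70.2) and sma-9 (69.8), and of 31 Wnt and Notch genes 1, the casein kinase gene kin-19 (73.1). Of 269 nuclear receptor genes 12 were, led by nhr-88 (85.0) and nhr-61 (72.3). Of 156 cuticle collagen genes 1 was, col-181 (79.5), of 78 ribosomal protein genes 2, and of 1360 genes taken as chemoreceptors by name prefix 5, among them srgp-1, which is no chemoreceptor gene. Nearest starts do not show which gene a site controls, and these shares were not tested.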

How the data were processed

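Peak lists of ChIP-seq in 2 biological replicates of 1 group were used, on ce11. Per the labels and file headers, the authors made a peak list from every replicate and from the pooled reads, and thresholded the pooled list by the irreproducible discovery rate. The sources used here do not give the peak caller, the aligner or that threshold. The deposited signal of a peak is the caller's own value, not scaled between lists. The deposited -log10 q shares its highest value among 1447 thresholded peaks, so signal alone ranked peaks. The replicate lists hold 30000 entries each, the pooled list 21931 and the thresholded set 2177. No read totals were used, so depth is unknown, and intervals cover the counting of peaks only. Lists on the other build were not used here.

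Summits were placed against Ensembl release 115. Replicate entries were matched by an overlap of 1 bp or more, taking the strongest. Shares were compared by two-sided Fisher's exact tests, summits with their flanks by exact McNemar tests, both with Benjamini-Hochberg adjustment at 0.05, and GC content entered logistic models as an alternative. The members and lists were chosen with earlier results of these data known. Named were the 20 strongest distal peaks, genes with most distal peaks, the 5 largest rank differences each way, the strongest peaks of each gene list and non-coding class, and the leading 7-letter words. Tests by chromosome, orientation, distance, single replicate and non-coding gene class, and of motif pairs, were added after seeing the data. The word scan was tested on simulated data. Computation used statsmodels 0.14.6, pandas 2.3.3, scipy 1.17.1, matplotlib 3.10.9 and numpy 2.4.6 under Python 3.11.15.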

Additional observations from a re-analysis of the deposited data

How the results depend on the processing

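Of 138 recomputed tests, 118 kept their direction and side of the threshold, and of 23 recomputed counts 16 stayed within 1.5 times the reported count. TRTTKRY against promoters kept its call among the stronger thresholded peaks (odds ratio 1.60, adjusted p = 0.0140, Fisher's exact test). It also kept it without 25 kb around pha-4, unc-119 and rol-6 (1.34, adjusted p = 0.0357, Fisher's exact test). At its other values in this paragraph it lost its call, except the upper end of its range over single replicates. Among the stronger thresholded peaks there were 232 distal peaks, the odds ratio against promoters was 0.676 for strength in both replicates (p = 0.128) and 0.956 for TGTTTRC (exact tests), and 46 words were more and 72 less frequent. With a promoter window of 500 bp the odds ratios were 1.00 for signal above the median, 0.914 for strength in both, 1.18 for TRTTKRY and 0.926 for TGTTTRC, with 232 words more frequent. With 2000 bp there were 311 distal peaks, odds ratios of 0.867 for strength in both and 1.33 for TRTTKRY, and 27 and 77 words. With summits within 500 bp counted once the odds ratio was 1.31 for TRTTKRY and 0.975 for TGTTTRC. With motif windows of 50 bp it was 1.30 and 0.940. With reciprocal overlap of 50% strength in both gave 0.896. Without 25 kb around pha-4, unc-119 and rol-6, chosen after seeing the data, signal above the median gave 0.809 (p = 0.0485, exact test). From either replicate's list alone, the odds ratios against promoters ran from 1.29 to 1.37 for TRTTKRY, 0.923 to 1.06 for TGTTTRC, 0.661 to 0.843 for signal above the median and 0.488 to 1.02 for strength in both, which still reads the other replicate, and distal peaks from 451 to 525. The cause of these shifts was not tested. No paired analysis was possible because all samples form 1 group. Unknown depth limits what the missing replicate entries can show.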
